A study of Mus musculus with 12 samples.

Results

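Teneurins and latrophilins are cell-surface proteins that bind each other across the synaptic cleft. Their genes Tenm1, Tenm2, Tenm3 and Tenm4 (teneurins) and Adgrl1, Adgrl2 and Adgrl3 (latrophilins) are 7 of the 21951 protein-coding genes of GENCODE M21. They were chosen by name, and every SLM2 peak whose centre lay inside one of these genes on its strand was counted as theirs. These were 27 of 2235 peaks, namely 26 of 2057 in whole brain and 1 of 178 in hippocampus. In whole brain Tenm2 held 22 peaks, Adgrl3 3 and Tenm4 1, and the lists held no peak in Tenm1, Tenm3, Adgrl1 or Adgrl2. The hippocampal peak lay in Tenm2.

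The series measured RNA bound to SLM2, the STAR-family splicing regulator encoded by Khdrbs3, by enhanced cross-linking and immunoprecipitation (eCLIP) in mice aged 30 days. Wild-type (WT) whole brain and WT hippocampus each have 2 eCLIP and 2 size-matched input libraries, and input RNA is taken from the same lysate without immunoprecipitation. Tissue was frozen, ground and UV cross-linked, 1 brain going into each whole-brain lysate and 4 hippocampi being pooled for each hippocampal one. The sources used here do not say whether replicates share animals. Slm2 KO hippocampus has 2 eCLIP and 2 input libraries, which were not analysed here. The authors merged the replicates of each tissue into 1 list of peaks, so no value has a spread between replicates, and no test between groups was possible. The lists hold no read counts, so the depth behind a peak is unknown here, and the methods give fewer amplification cycles for whole-brain than for hippocampal libraries. Tissue and library preparation cannot be told apart in any comparison of both lists.

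Teneurins are large single-pass membrane proteins that form dimers and carry a beta-propeller in their extracellular part. Latrophilins are adhesion G protein-coupled receptors that bind teneurins through their lectin domain and FLRT proteins through their olfactomedin domain. A short alternatively spliced insert in the teneurin beta-propeller changes binding to latrophilins, which makes splicing part of the biology of this pair. SLM2 binds RNA at UWAA, where W stands for U or A, and is known for its control of alternative exons in RNAs of synaptic adhesion proteins.

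The sequences printed here are those of the member peaks of highest fold change, of the windows richest in UWAA, of the peaks nearest to an annotated exon, and of 2 peaks rich in G that hold no UWAA. They were read 5′ to 3′ on the RNA strand from GRCm38, the same assembly as mm10, and are written in DNA letters. Capitals mark every base of a UWAA site, which appears as TTAA or TAAA. Peaks of a gene are numbered in the direction of transcription.
Tenm2 peak 12, chr11:36696630-36696680, minus strand: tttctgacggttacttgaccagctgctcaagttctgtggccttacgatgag
Tenm2 peak 20, chr11:36608120-36608318, minus strand: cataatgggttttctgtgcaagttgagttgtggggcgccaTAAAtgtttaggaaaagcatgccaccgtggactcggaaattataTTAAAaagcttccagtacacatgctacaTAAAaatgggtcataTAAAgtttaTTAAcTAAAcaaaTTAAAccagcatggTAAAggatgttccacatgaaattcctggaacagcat
Tenm2 peak 10, chr11:36785031-36785105, minus strand: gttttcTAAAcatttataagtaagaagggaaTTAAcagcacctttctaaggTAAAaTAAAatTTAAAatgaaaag
Tenm2 peak 9, chr11:36785797-36785927, minus strand: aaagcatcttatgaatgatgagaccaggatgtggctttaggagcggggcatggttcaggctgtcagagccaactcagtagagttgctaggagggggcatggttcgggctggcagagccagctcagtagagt
Tenm2 peak 13, chr11:36677734-36677823, minus strand: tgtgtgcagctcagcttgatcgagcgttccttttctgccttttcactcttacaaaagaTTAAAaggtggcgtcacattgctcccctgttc
Tenm4 peak, chr7:96565385-96565460, plus strand: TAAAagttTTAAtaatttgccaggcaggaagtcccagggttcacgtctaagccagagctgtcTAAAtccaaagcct
Adgrl3 peak 2, chr5:81266158-81266316, plus strand: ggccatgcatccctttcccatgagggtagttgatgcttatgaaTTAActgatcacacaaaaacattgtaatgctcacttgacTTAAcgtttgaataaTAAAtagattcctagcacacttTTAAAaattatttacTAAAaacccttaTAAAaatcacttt
Adgrl3 peak 3, chr5:81491084-81491163, plus strand: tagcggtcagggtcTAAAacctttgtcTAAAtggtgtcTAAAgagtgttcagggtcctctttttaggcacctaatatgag
Tenm2 hippocampal peak, chr11:36827519-36827629, minus strand: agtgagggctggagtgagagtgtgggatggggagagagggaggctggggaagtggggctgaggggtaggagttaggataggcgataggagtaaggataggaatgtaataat

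Among the 22 Tenm2 peaks, peak 12 had the highest fold change over input and holds no UWAA within its 51 nt. Peak 20 had the highest −log10 p and holds 10 UWAA sites in 199 nt. Peak 10 holds 6 sites in 75 nt. Peak 9 and the hippocampal peak hold none either, and G makes up 36.6% and 50.5% of their bases, against medians of 16.6% in the whole-brain and 23.5% in the hippocampal list. Peak 6, which is not printed, also holds none, and G makes up 17.1% of its bases.

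In whole brain, 3 of the 7 genes held a peak, against 1.92% of all 21951 protein-coding genes (421 genes). Among the 5864 genes at least as long as Adgrl1, the shortest of the 7 at 41.85 kb, 6.46% held a peak. Among the 155 genes of at least 600 kb the share was 52.3%, and 3 of the 5 members of that length held one. The count of long members with a peak was thus near the background of long genes and is no result about the set. In hippocampus 1 of 7 members held a peak, against 0.378% of all protein-coding genes and 1.18% of those at least as long as Adgrl1. Of the 5 long members 1 did so, against 16.1% of genes of at least 600 kb, which again is near the background.

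**Figure D1:**
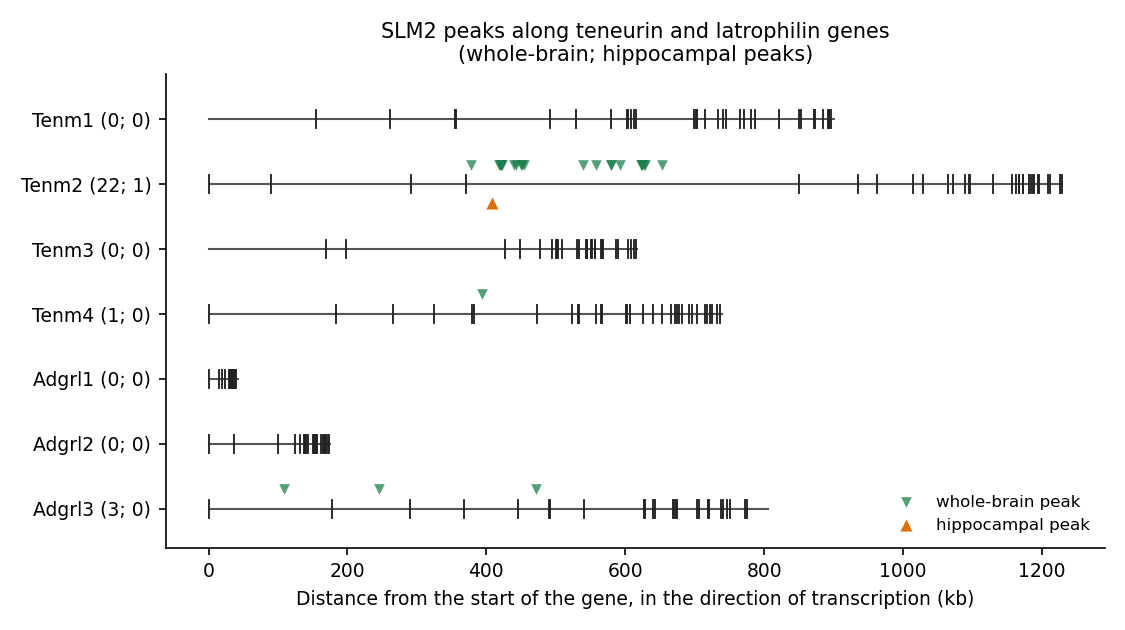
SLM2 peaks along the 7 genes, drawn to scale from the start of each gene in the direction of transcription (kb), with exons of 1 coding transcript as vertical ticks, whole-brain peaks as green and hippocampal peaks as orange triangles. The 22 whole-brain peaks of Tenm2 sit in its longest intron, the 3 of Adgrl3 are far apart, and Tenm1, Tenm3, Adgrl1 and Adgrl2 have none.

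Within the family the peaks were concentrated in Tenm2. This gene spans 1229 kb of chromosome 11 (chr11:36006656-37235964, minus strand), which places it at rank 28 of the protein-coding genes by length. Its 22 whole-brain peaks come to 1.79 per 100 kb of gene. Adgrl3, of 805.0 kb (chr5:81020138-81825133, plus strand), had 0.373 per 100 kb, and Tenm4, of 739.8 kb (chr7:96171246-96911093, plus strand), had 0.135. The 81 genes of at least 600 kb with a peak had a median of 4 peaks and of 0.373 peaks per 100 kb. Per 100 kb Adgrl3 was at the median, Tenm4 below it and Tenm2 above it. By count Adgrl3 with 3 peaks and Tenm4 with 1 were below the median and Tenm2 above it. Of these long genes 18 held at least 22 peaks, and the highest count was 87. Over all protein-coding genes 21 had more peaks than Tenm2, and by peaks per kb Tenm2 ranked 133 of 421.

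Tenm1 and Tenm3 held no peak, and both are long. Of the genes of at least 600 kb 52.3% held a whole-brain peak, so a long gene without one is common. Tenm1, on the X chromosome, spans 901.3 kb (chrX:42527866-43429126, minus strand) and is longer than Adgrl3 and Tenm4. Tenm3 spans 616.3 kb (chr8:48227682-48843951, minus strand). Adgrl2 (chr3:148815583-148990555, minus strand) and Adgrl1 (chr8:83900105-83941954, plus strand) are the shortest members, with 175.0 and 41.85 kb. No peak of either list lay on the opposite strand inside any of the 7 genes. A gene without a peak is one with no region past the thresholds of the authors. The level of each RNA in these tissues was not analysed here, and its part in these counts was not tested.

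**Figure D2:**
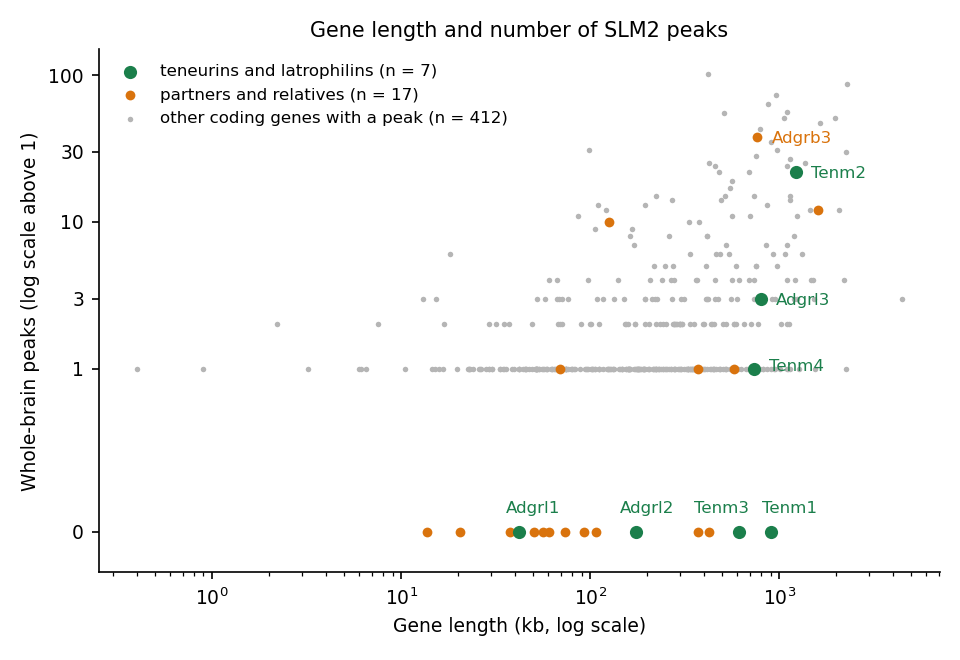
Gene length (kb, log scale) and number of whole-brain SLM2 peaks (log scale above 1) for the 7 teneurins and latrophilins (green), 17 partners and relatives (orange) and 412 other protein-coding genes with a peak (grey). Tenm2 lies at 22 peaks among other long genes. Tenm1 and Tenm3, which span over 600 kb, lie at 0, and 52.3% of genes of at least 600 kb held a peak.

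All 22 whole-brain peaks of Tenm2 and its hippocampal peak lay in 1 intron. Transcript Tenm2-202 has 31 exons, and the intron is its intron 4 (chr11:36385329-36864667). With 479.3 kb it is the longest intron of any member and makes up 39.0% of the gene. The other 29 introns, which add up to 740.0 kb or 60.2% of the gene, held 0 peaks, among them intron 2 with 201.3 kb and 4 more of at least 50 kb. Within intron 4 the density was 4.59 peaks per 100 kb. The span of each of the 3 coding transcripts of Tenm2 takes in all 22 peaks.

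Within the intron the peaks lay towards its 5′ side and in groups. The first had its centre 6.24 kb downstream of the 5′ splice site of a coding exon of 276 nt (chr11:36864668-36864943), and the last 282 kb downstream of it. The peaks thus took up the first 58.7% of the intron, and its last 198 kb held none. Distances between neighbouring peaks ran from 7 nt to 84.4 kb, with a median of 3766 nt. Peaks 2 to 6 lay within 3.83 kb, peaks 9 to 11 within 4.84 kb and peaks 17 to 21 within 5.93 kb, and no peak lay in the 84.4 kb between peaks 11 and 12. The shortest distance, 7 nt, was between peaks 4 and 5. Merging peaks at most 1000 nt apart left 16 sites, of which 5 joined 11 peaks.

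**Figure D3:**
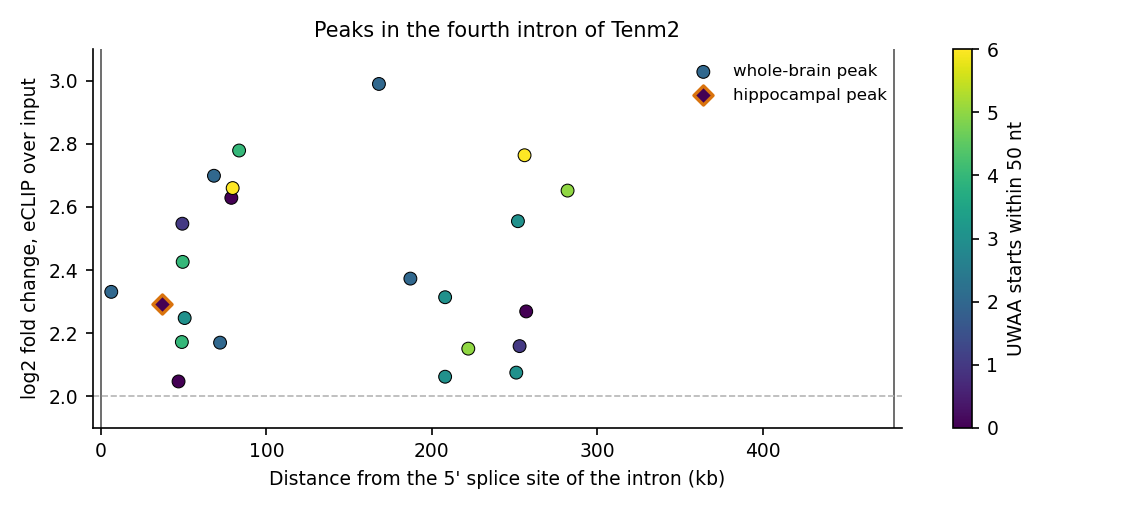
The 22 whole-brain peaks (circles) and the 1 hippocampal peak (diamond) of Tenm2 by distance from the 5′ splice site of intron 4 (kb) and log2 fold change over input, coloured by the number of UWAA starts within 50 nt of the peak centre. Vertical lines mark both ends of the intron and the dashed line the threshold of 2. Peaks lie between 6.24 and 282 kb, and those of highest fold change, peaks 12, 11 and 20, lie in different parts of that stretch.

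The Tenm2 peaks lay far from coding exons, the nearest being peak 1 at 6.24 kb. Distances to exons are not given here for the whole list. Neither these distances nor the count within 500 nt can therefore be called particular to the members. Peak 13 (chr11:36677734-36677823) was the only member peak with its centre within 500 nt of an annotated exon. It lay 33 nt upstream of the first exon, of 277 nt, of a transcript without a coding frame, Tenm2-205, and some of its bases lie in that exon. The nearest coding exon was 187 kb away. The 9 peaks after it lie downstream of the start of this transcript as well as in the full-length one. Whether Tenm2-205 extends over them was not checked, so the RNA that carried them cannot be told from their position. The 13 peaks up to its start had a median log2 fold change of 2.43, and the 9 after it 2.27. Median −log10 p went the other way, with 3.73 up to the start and 4.16 after it. UWAA did so too, its starts making up a median of 2.04% of positions at the former peaks and 3.06% at the latter. These differences were not tested.

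The insert of the beta-propeller is encoded by a short exon, and the short coding exons of teneurins were far from any peak. Tenm2 has a 21-nt exon (chr11:36054926-36054946) that is in all 3 annotated coding transcripts, and the nearest whole-brain peak was 528 kb away. A 21-nt exon of Tenm4, which 1 coding transcript skips and 2 include, was 289 kb from the peak of Tenm4, and a 27-nt exon that is also skipped was 240 kb from it. Tenm1 and Tenm3, which held no peak, each have a 21-nt coding exon that 1 transcript skips. Which of these exons encodes the insert was not tested.

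In Adgrl3 the 3 peaks lay in introns 1, 2 and 5 of transcript Adgrl3-211, and the gaps between them were 137424 and 224767 nt. Peak 3 (chr5:81491084-81491163) was the member peak nearest to an alternative coding exon. It lay 1300 nt upstream of an 11-nt exon (chr5:81492423-81492433) that 1 coding transcript includes and 18 skip. Peak 2 (chr5:81266158-81266316) lay 43.6 kb upstream of the nearest exon, and peak 1 (chr5:81128645-81128733) 61.0 kb from the nearest exon of a protein-coding transcript, which is a non-coding exon. The peak of Tenm4 (chr7:96565385-96565460) lay in intron 6 of Tenm4-201, 11.7 kb downstream of a 270-nt coding exon. None of these 4 peaks was within 500 nt of an exon. All 26 whole-brain member peaks were intronic by their centre (100%, exact 95% interval 86.8 to 100%), against 94.7% of the whole list. Peaks of 1 gene are not independent, and such intervals cover counting error only.

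The highest fold changes over input were in Adgrl3 and Tenm4 and not in Tenm2. The log2 fold change over input was 3.89 at Adgrl3 peak 2, or 14.8-fold, and ranked 64 of 2057. The Tenm4 peak had 3.62, or 12.3-fold, at rank 124. The other peaks of Adgrl3 had 2.46 and 2.85. In Tenm2 the 22 values ran from 2.05 to 2.99 with a median of 2.35, which is 4.13- to 7.94-fold over input. The whole-brain list had a median of 2.56 and began at the threshold of 2. Thus 2 of 26 member peaks (7.69%, exact 95% interval 0.946 to 25.1%) reached a log2 fold change of 3, against 22.6% of the list, and neither was in Tenm2.

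By p the order of the genes was different. The −log10 p of a peak sets its eCLIP reads against its input reads. It ran from 2.97 to 6.51 in Tenm2, with a median of 3.85, and the highest values were 6.51 at peak 20, 6.33 at peak 4 and 5.92 at peak 5. Adgrl3 had 3.68, 3.59 and 2.87, and Tenm4 2.94. The peaks of highest fold change in these genes thus stood low by −log10 p, at rank 1469 for Adgrl3 peak 2 and 1986 for Tenm4. Over all members the median −log10 p was 3.64, against 4.32 for the list. The −log10 IDR, which scores how well the replicates agree on a peak, had a median of 2.25 over members and 2.42 over the list, and was highest at Tenm2 peak 4 with 3.09. At the only peak of Tenm4 and at Adgrl3 peak 3 it was 2.01, next to the threshold of 2.

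**Figure D4:**
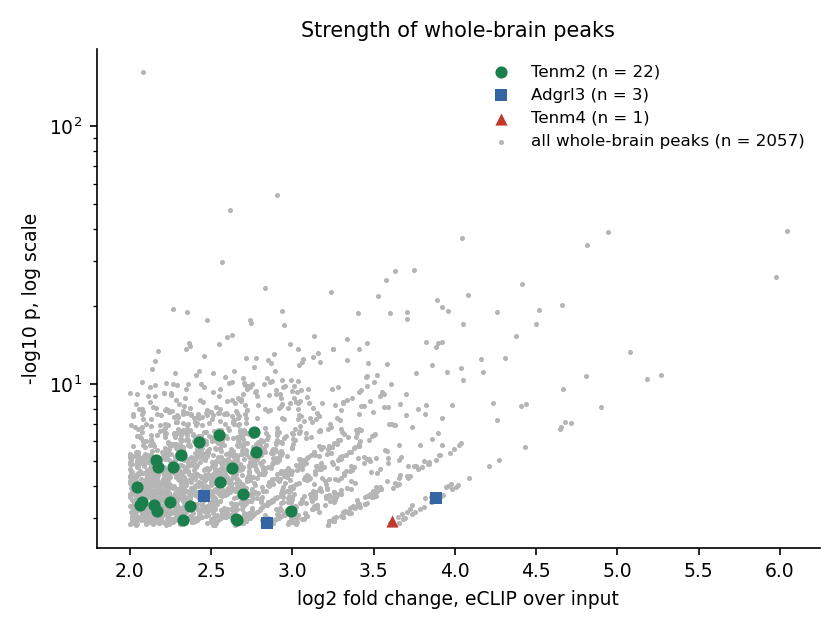
Log2 fold change over input and −log10 p (log scale) of all 2057 whole-brain peaks (grey) and those of Tenm2 (green circles), Adgrl3 (blue squares) and Tenm4 (red triangle), as the authors computed them. The Tenm2 peaks lie between 2.05 and 2.99 on the horizontal axis, and the strongest Adgrl3 and Tenm4 peaks lie at 3.89 and 3.62 near the lower edge.

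UWAA was on average denser at the peaks of Tenm2, Adgrl3 and Tenm4 than beside them. UWAA (UUAA or UAAA) was searched on the RNA strand only, overlapping sites included, up to 50 nt to either side of each centre and in flanks of the same length whose centres lay 500 nt to either side. Its starts made up 2.83 of 100 positions at Tenm2 peaks and 1.76 in their flanks, as means over 22 peaks. In Adgrl3 the means were 3.74 at peaks and 1.70 beside them, and at the Tenm4 peak the values were 5.10 and 0. Over all 26 member peaks the means were 3.02 and 1.69, against 3.59 and 1.80 over the whole-brain list. Density at the peaks was thus somewhat lower in members than in the list, which is a description without a test. The difference between peaks and flanks in Tenm2 was smaller with repeats left out. It was 1.07 with all windows and 0.351 without the 6 windows in which over 20% of the bases were repeat-masked, among them those of peaks 10 and 20 (42.6 and 40.6%). In Adgrl3 the same step, which left out peak 1, gave 3.32, against 2.04 with all 3 windows. The value for Adgrl3 also depended on where the window was placed. With the window at the 5′ end of each peak in place of its centre it was 0.17 in Adgrl3, 1.04 in Tenm2 and 7.14 in Tenm4, so UWAA in Adgrl3 was then hardly denser than in the flanks.

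The 22 windows of Tenm2 differed widely. UWAA was denser at the peak than in the flanks in 15 of 22, less dense in 6 and equal in 1. Over all members it was denser in 18 of 26 (69.2%, exact 95% interval 48.2 to 85.7%), against 66.5% of the list. Peaks 10 and 20 had the most starts, 6 each, and their flanks had 1.53 per 100 positions. The windows of peaks 2, 9 and 21 had none. Peaks 2 and 21 do hold UWAA towards their 5′ end, outside the window, while peak 9 holds none at all. Peaks 6 and 12, whose own bases hold none, have 3 and 2 within their windows. At least 1 UWAA was found in 23 of 26 member windows (88.5%, 69.8 to 97.6%) and in 83.6% of the windows of the list. In the upstream and downstream flanks the shares were 69.2% and 61.5% for members and 67.5% and 67.0% for the list, so most flanks held a UWAA as well.

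Of both forms of UWAA, UAAA differed more between peaks and flanks in Tenm2. It started at 1.86 of 100 positions at the peaks and 0.928 in the flanks, while UUAA had 0.974 and 0.835. Over the list the values were 2.16 and 0.987 for UAAA and 1.44 and 0.814 for UUAA. A longer form with the same core, read as UUUAAAA or else as UUAAAAA, was in 5 of 26 member windows (19.2%, 6.55 to 39.4%) and in 18.9% of the windows of the list. The 5 were peaks 5, 6, 10 and 20 of Tenm2 and peak 2 of Adgrl3, and the last had 2 starts. The bases of the member windows were A or T in 62.9% on average, and in 61.3% in the flanks.

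**Figure D5:**
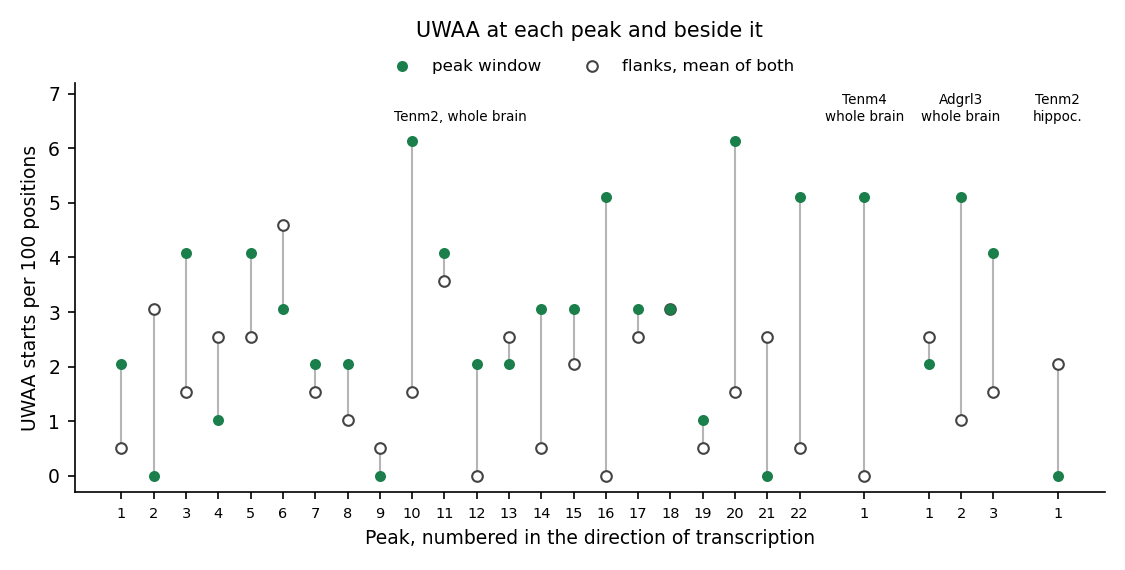
UWAA starts per 100 positions at each member peak, numbered along its gene, for the bases up to 50 nt from the centre (green) and the mean of both flanks (open circles), with a line joining the values of a peak. Tenm2 peaks 10 and 20 reach 6.12, Tenm2 peaks 2, 9 and 21 and the hippocampal peak are at 0, and the flanks reach at most 4.59.

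Windows rich in repeats made up a smaller share of the member peaks than of the list. Intron 4 of Tenm2 holds 22 of the 26 windows and 6 of the 7 rich in repeats. The shares thus mostly describe 1 intron, whose peaks are not independent. Over 20% of the window was repeat-masked in 7 of 26 (26.9%, 11.6 to 47.8%), against 50.9% of the list. No base was masked in 13 of 26 windows (50.0%, 29.9 to 70.1%), against 33.1% of the list, a value inside that interval. In Tenm2, 3 peaks have a flank that meets a neighbouring peak. No member peak held 10 nt or more of the sequencing adaptor, against 0.972% of the list.

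The hippocampal peak of Tenm2 (chr11:36827519-36827629) shared no base with a whole-brain peak. It lay in intron 4 as well, 37.1 kb from the 5′ splice site and 9.68 kb from whole-brain peak 2. Its log2 fold change was 2.29 and its −log10 IDR 2.6, but its −log10 p was 0.912, at rank 148 of 178. In the hippocampal list 53.4% of peaks had a −log10 p below 2, while the lowest value in whole brain was 2.82. The peak window held no UWAA, and its flanks had 2.04 starts per 100 positions. Its bases are mostly G and A (78.4%), and 5 of the 178 hippocampal peaks had a higher share of G. Over the hippocampal list 30.9% of peaks had 1 nt or more in common with a peak of the whole-brain list, and 67.4% had a UWAA in the window. None of the 22 whole-brain peaks of Tenm2 thus recurred in the hippocampal list. That list has 178 peaks, of which 55 shared a base with a whole-brain peak, against 2057 peaks in whole brain. Most peaks of the whole-brain list thus did not recur either, and the absence is no result about Tenm2.

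Of 17 genes of partners and relatives, 6 held whole-brain and 3 hippocampal peaks. In whole brain 1.92% of all protein-coding genes and 52.3% of those of at least 600 kb held a peak. In hippocampus these shares were 0.378% and 16.1%. The 17 genes were not matched by length to other genes, so their counts are a description only. FLRT proteins, which are also extracellular ligands of latrophilins, had none in Flrt1, Flrt2 or Flrt3, which span 13.7 to 93.0 kb. Of the UNC5 receptors, which bind FLRT proteins, Unc5b, Unc5c and Unc5d had 1 peak each, with log2 fold changes of 3.13, 2.71 and 2.31, and Unc5a had none. Cntn6, which encodes a contactin reported to bind latrophilins, had none at 371 kb, and neither had the SHANK scaffold genes Shank1, Shank2 and Shank3, whose proteins bind the C-terminus of latrophilins. Among adhesion receptors Adgrb3, which encodes BAI3, had 38 peaks in whole brain and 1 in hippocampus over 762 kb, while Adgrb1, Adgrb2 and Adgrl4 had none. Nrxn2 and Nrxn3, which encode neurexins, presynaptic adhesion proteins, had 10 and 12 peaks in whole brain and 2 each in hippocampus. The 6 genes of this list with a whole-brain peak span 69.0 to 1610 kb, and the 11 without one 13.7 to 423 kb, so both ranges overlap.

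The genes most like Tenm2 in length and number of peaks were Ctnnd2, Nlgn1, Anks1b, Adgrb3 and Il1rapl1. By the distance over log2 values of both counts (plus 1) and of length in kb, Ctnnd2, which encodes a delta-catenin, was closest (distance 0.886), with 13 peaks in whole brain and 1 in hippocampus. Nlgn1, which encodes a neuroligin, had 35 and 2 (0.976). Anks1b had 24 and 0 (1.02), Adgrb3 38 and 1 (1.03) and Il1rapl1 25 and 0 (1.03). The likeness is over 2 lists and a length only.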

How the data were processed

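SLM2 eCLIP peaks of WT whole brain and WT hippocampus were analysed, 1 list per tissue. Per the labels and methods, the authors used cutadapt 3.4 for trimming, STAR 2.7.9 for alignment (build mm10) and UMI-tools 1.1.1 for deduplication. CLIPper peaks of 2 replicates were then merged by IDR. The deposited values are a log2 fold change of eCLIP over input, a −log10 p-value and, as a score of reproducibility, a −log10 IDR per peak, and the lists hold peaks of at least 2 in the first and the last. The lists have no column names, and the meaning of the columns was taken from the study's own table of peaks.

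Peak centres were assigned by strand to GENCODE M21 genes, and sequence was read from the RefSeq release of GRCm38, in which all 2235 peaks fit their chromosomes and lie in a gene. Exons of all transcripts were used, and introns were numbered on the coding transcript of longest span. Flanks lay 450 to 550 nt from the centre. Shares carry exact (Clopper-Pearson) 95% intervals. Members, lists and named peaks were chosen with earlier results of these data known. The text names all 7 members, 17 partners and relatives (1 more item of that list is not reported here), the 5 genes closest to Tenm2, and of the peaks the strongest of each gene, those within 500 nt of an exon and those with the most UWAA. Other peaks named were chosen after their values were seen. Assignment and motif counts were tested on simulated data (200 of 200 peaks and 200 of 200 windows recovered). Read counts and the 4 Slm2 KO libraries were not analysed here. Python 3.11.15, pandas 2.3.3, scipy 1.17.1, pysam 0.24.0 and matplotlib 3.10.9 were used.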

Additional observations from a re-analysis of the deposited data

How the results depend on the processing

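Of 38 values under alternative settings 25 stayed within 1.5 times the value reported, or within the interval of the share. No UWAA difference changed sign, and counts and shares cannot do so. Some of the 25 could not have moved. The whole-brain list has no −log10 p below 2.82, so requiring at least 2 removes nothing there. No member peak holds enough adaptor to be left out. The tally is thus no measure of stability. Requiring a log2 fold change of at least 3 left 2 whole-brain member peaks (in Adgrl3 and Tenm4) and 0 in hippocampus, and a −log10 IDR of at least 3 left 1 peak, in 1 gene (Tenm2), and 0 in hippocampus. A −log10 p of at least 2 left 0 hippocampal member peaks and 0 genes, so no overlap of tissues could be computed there. With exons of protein-coding transcripts only, 0 peaks were within 500 nt of an exon. UWAA at peaks minus flanks, averaged over the 3 genes of whole brain, was 2.74 per 100 positions. It was 1.46 within 25 nt of the centre, where the Tenm4 difference was 0, and 1.33 as a mean over peaks. In hippocampus the difference was −2.04, and −3.57 with flanks centred 1000 nt away. With masked windows left out no hippocampal window remained. Merging peaks at most 1000 nt apart (20 sites) and leaving out peaks whose flank meets another peak (2.68) were added after seeing the data. The lists give no depth, and peaks below the thresholds of the authors are not in them, so a gene without a peak may be bound at a lower level. No paired analysis was possible because the authors merged the replicates of each tissue into 1 list, and for the same reason no replicate could be left out.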

Other observations

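Peak 9 of Tenm2, the whole-brain member peak with no UWAA in its own bases or its window, holds an internal repeat. A stretch of 43 nt matches the bases 48 nt away at 37 positions (86.0% identity), and no other member peak has such a repeat of at least 30 nt at 85% identity. Its window holds no repeat-masked base, and its log2 fold change of 2.63 and −log10 p of 4.71 are above the medians of Tenm2 (2.35 and 3.85).

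The profile of UWAA around the 22 Tenm2 peaks was uneven. In bins of 50 nt it was 3.55 starts per 100 positions from 100 to 51 nt upstream of the centre, 3.00 in the next bin, 2.73 and 2.46 in the first 2 bins downstream, and 3.27 from 100 to 149 nt downstream. Bins far from the centre reached similar values, with 3.09 from 400 to 449 nt downstream and 2.82 from 500 to 451 nt upstream. Over the whole-brain list the highest bin was the one just upstream of the centre with 4.00, and the bin from 100 to 149 nt downstream had 2.19. The difference between both profiles was not tested.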
